A study of Squalius alburnoides and Squalius pyrenaicus with 4 samples.

Results

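The miRNAs miR-182, miR-183 and miR-96 form the miR-183 cluster, and their 3 probes were followed over 4 forms of the *Squalius alburnoides* complex. A probe was taken as a member when 1 of the names it carries was exactly dre-miR-182, dre-miR-183 or dre-miR-96, dre being the prefix of zebrafish. This gave 3 of the 218 probes with zebrafish names, on a chip of 1155 named miRNA probes. A miRNA is a small RNA that lowers the output of messenger RNAs carrying matching sites. In vertebrates the cluster is transcribed as a single precursor, and its members have closely related seeds, the stretch with which a miRNA pairs to its targets. It is best known from sensory organs, where it is expressed in photoreceptors of the retina, hair cells of the inner ear and olfactory neurons. Seed mutations of miR-96 cause hearing loss in humans and mice.

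The RNA was not from sense organs. Total RNA of adult liver, muscle and brain was pooled from about 3 fish per genomic composition, labelled with the dye Cy3 and hybridized in a single colour to a multi-species miRNA chip. The compositions were PAA (triploid hybrid), PA (diploid hybrid), AA (diploid and not hybrid) and PP (the parental species *S. pyrenaicus*), where P denotes the *S. pyrenaicus* genome and A the genome of the other ancestor. Each composition had 1 array, so comparisons between compositions lack replicates and were not tested. The hybrid forms PAA and PA shared a slide, as did the non-hybrid forms AA and PP, and what belongs to the slide and what to hybrid state cannot be told apart. Within the slides, PAA and AA lay at a median Y coordinate of 47430 and 47540 microns, and PA and PP at 16430 and 16530. Position and ploidy (PAA against PA) and position and genome (AA against PP) cannot be told apart either. The *S. alburnoides* forms were caught in the Almargem River and *S. pyrenaicus* in Colares, and per the study AA fish are always male and PAA fish mainly female. River and genome therefore cannot be told apart in comparisons with PP, and sex may differ between the pools. In pooled tissue, fewer cells of a type and less RNA per cell cannot be told apart.

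Every probe was printed in 4 spots per array, and the signal of a spot was its foreground minus its local background intensity. A kept spot passed when its foreground reached 2 times its background or more. A probe was called detected when at least 2 spots passed, and by this rule 154 (AA) to 168 (PAA) zebrafish probes were detected. Detection was read with caution on this chip, since probes made only for invertebrate miRNAs were detected in 67.8% (PAA), 72.7% (PA), 63.9% (AA) and 73.2% (PP) of 183 cases. How far such probes match fish miRNAs was not checked, so this share does not measure false detection. Spots printed without a probe (BLANK) give a second yardstick. Their 95th percentile, called the BLANK level below, was 103 (PAA), 209 (PA), 203 (AA) and 516 (PP), while their medians were only 36 (AA) to 49 (PP). Only 32 to 40 BLANK spots were kept per array, so a few bright ones set this level. Of the defining miRNAs of the pooled tissues, mean signals were above the BLANK level for 7 (PAA), 7 (PA), 7 (AA) and 5 (PP) of 8 brain miRNAs, for 3, 2, 2 and 1 of 4 liver miRNAs and for 6, 3, 3 and 0 of 6 muscle miRNAs in the same order of forms. The brain-defining miR-124 failed the detection rule on AA, and the liver-defining miR-122 was below the BLANK level on PP.

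Of the cluster, miR-182 showed the clearest pattern, with bright spots in both hybrids and spots near the background in both non-hybrid forms. On PAA its 4 spots read 1278, 1347, 1119 and 1016. On PA they read 1358, 1372, 872 and 869. On AA they read 18, 101, 24 and 60, and on PP 89, 61, 21 and 21. The dimmest hybrid spot was therefore brighter than every spot of the non-hybrid arrays. All 4 spots passed on each hybrid array, at 11.7 to 16.1 times their background on PAA and 8.50 to 11.1 times on PA. On AA 1 spot passed, at 2.16 times its background, and on PP none did, with a highest ratio of 1.27. The PP spots 1 and 2 lay in high local backgrounds of 327 and 276, against 86 and 85 around spots 3 and 4. Means of the kept spots were 1190 ± 150.2 (PAA), 1118 ± 286 (PA), 50.8 ± 38.3 (AA) and 48 ± 33.2 (PP) (SD over 4 spots each).

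**Figure D1:**
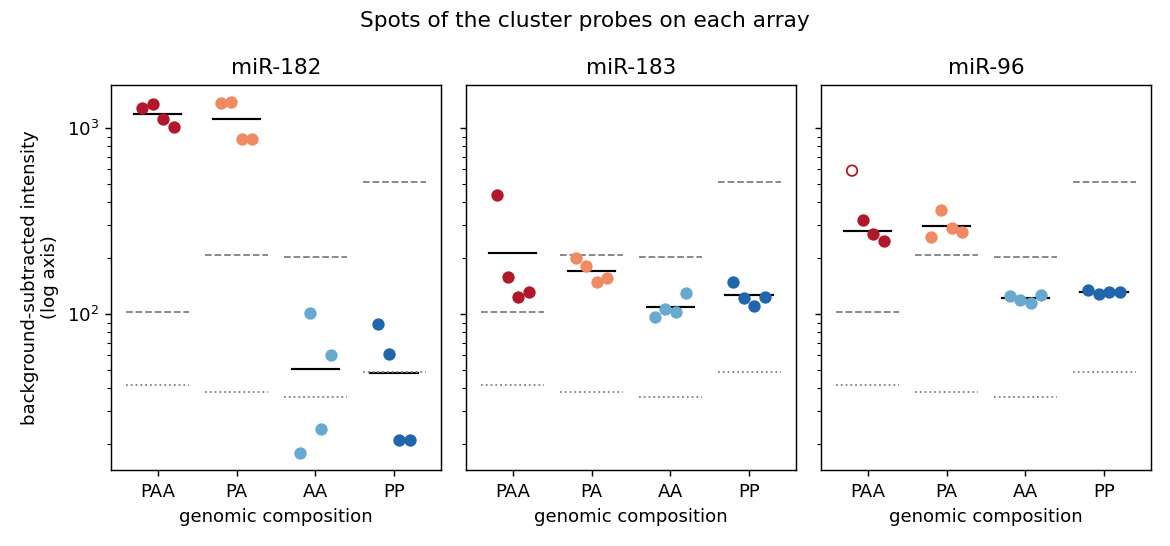
Background-subtracted intensity (log axis) of each spot of the miR-182, miR-183 and miR-96 probes on the PAA, PA, AA and PP arrays, with the mean of the kept spots (solid line), the median of the BLANK spots (dotted) and their 95th percentile (dashed). The open circle is a PAA spot of miR-96 set aside at the scan. All hybrid spots of miR-182 lie at 869 or more and all its non-hybrid spots at 101 or less.

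The yardsticks placed miR-182 in the same way. Its 4 spots on PAA and its 4 on PA were above the brightest BLANK spot of their array, at 522 on PAA and 233 on PA, whereas no spot on AA or PP reached the BLANK level. Its mean exceeded those of 82.5% of the invertebrate-only probes on PAA and 85.1% on PA, but of only 11.2% on AA and 2.75% on PP. Since miR-182 was not detected on AA and PP, only a lower bound of its difference can be given. After quantile normalization over the detected zebrafish probes, which gives the arrays a common range, the lowest detected value was 104 on every array. Against that floor miR-182 was at least 10.1-fold higher on PAA and at least 9.19-fold higher on PA than on AA or PP. A stricter floor is the BLANK level of the dim array. Against that of AA the bounds were 4.32-fold for PAA and 3.95-fold for PA, and against that of PP 1.80-fold and 1.65-fold. The BLANK level of PP was the highest of the 4 arrays.

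Between the hybrids miR-182 did not separate. The log2 difference of PAA minus PA was 0.13 ± 0.21 (SE over 4 spots each), and the spots overlapped. The 4 spots of a probe fall in pairs, the first 2 in 1 part of an array and the last 2 in another. On PA the first pair of miR-182 spots was 1.57 times as bright as the second, and on PAA 1.23 times. This was not particular to miR-182, as the median ratio over zebrafish probes with spots passing in both places was 1.23 on PA and 1.10 on PAA. The spread within PA was therefore mostly one between the places, and either pair alone was far above AA and PP.

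The miR-96 probe was brighter in the hybrids too, but by less. On PAA its kept spots read 320, 270 and 248, and another spot, at 590, had been set aside at the scan. On PA its spots read 259, 363, 290 and 276. On AA they read 125, 119, 115 and 127, and on PP 135, 128, 132 and 131. No spot of a hybrid array overlapped with any spot of AA or PP, and the non-hybrid spots were tightly grouped. Means were 279 ± 36.9 on PAA (SD, n = 3 spots), and 297 ± 45.8 on PA, 121.5 ± 5.51 on AA and 131.5 ± 2.89 on PP (SD, n = 4 spots each). All kept spots passed the detection rule, at 3.14 to 4.09 times background on the hybrids and 2.28 to 2.56 times on AA and PP. The 3 kept PAA spots and the 4 PA spots were above the BLANK level of their array, and no AA or PP spot was. The mean exceeded that of 63.9% of the invertebrate-only probes on PAA and 64.6% on PA, against 43.0% on AA and 24.2% on PP. On the non-hybrid arrays miR-96 thus passed the detection rule while most invertebrate-only probes were brighter.

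On the log2 scale miR-96 differed by 1.04 ± 0.11 between PAA and AA and by 1.04 ± 0.11 between PAA and PP. For PA the differences were 1.03 ± 0.11 against AA and 1.03 ± 0.11 against PP. Against the BLANK level of AA the bounds were 1.12-fold for PAA and 1.11-fold for PA, and against that of PP no bound could be given. PAA and PA differed by 0.01 ± 0.15 and AA and PP by 0.00 ± 0.04, in both cases with overlapping spots. The 4 arrays thus fell into a brighter and a dimmer pair, and these pairs are also the slides.

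After normalization the miR-183 probe did not separate the hybrids from the non-hybrid forms beyond the spread of its spots. Before it, the PA and AA spots did not overlap. On PAA its spots read 436, 158, 124 and 132. On PA they read 201, 181, 148 and 156. On AA they read 97, 106, 103 and 130, and on PP 149, 122, 110 and 124. The first PAA spot stands apart, and it lay in a local background of 220, against 92 to 107 around the other 3. Means were 212.5 ± 149.7 (PAA), 171.5 ± 24.2 (PA), 109 ± 14.5 (AA) and 126 ± 16.4 (PP) (SD, n = 4 spots each). All 16 spots passed the detection rule, at 2.11 to 3.09 times background. All 4 PAA spots were above the BLANK level of that array, and none was on PA, AA or PP. Against the invertebrate-only probes the mean of miR-183 stood above 59.6% (PAA), 46.4% (PA), 33.0% (AA) and 22.0% (PP).

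The log2 differences of miR-183 were 0.65 ± 0.43 for PAA against AA, 0.60 ± 0.43 for PAA against PP, 0.42 ± 0.14 for PA against AA and 0.36 ± 0.14 for PA against PP. In all 4 comparisons the normalized spots overlapped. Without the first spots the PAA differences were 0.20 against AA and 0.10 against PP, so their size rests on the spot in the high local background. For PA against AA the spots did not overlap before normalization, at 148 to 201 against 97 to 130, and did so after it. They also did not overlap with scaling on total signal or Homo spots, or when any 1 spot was left out. PAA and PA differed by 0.23 ± 0.44, a difference that was −0.18 without the first spots. AA and PP differed by −0.05 ± 0.13.

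**Figure D2:**
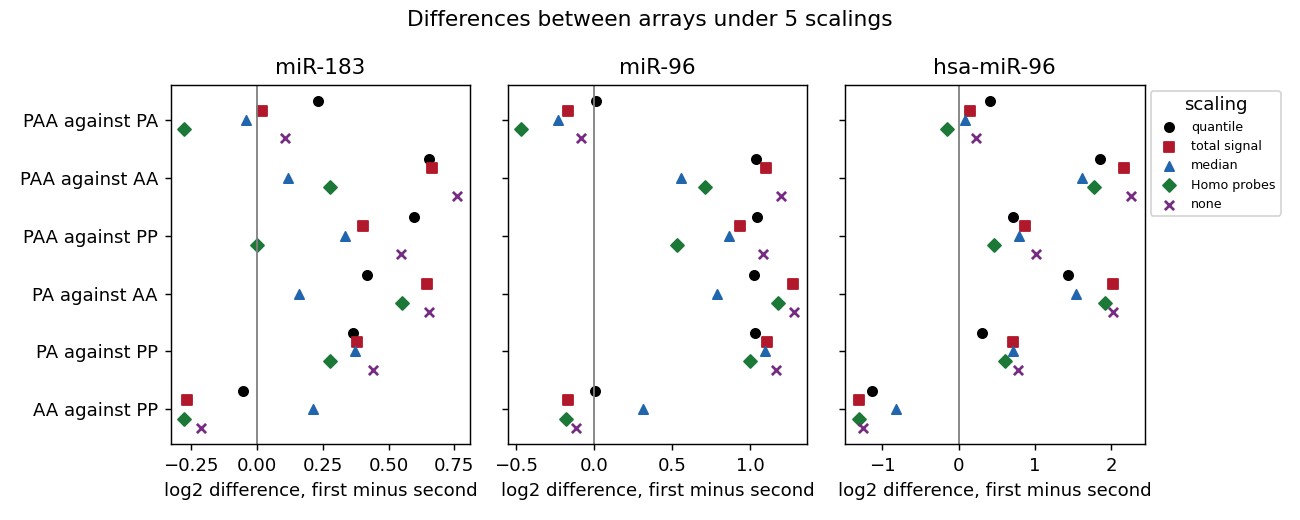
Log2 difference between arrays (first minus second, horizontal axis) of the miR-183, miR-96 and hsa-miR-96 probes in the 6 comparisons, each under 5 scalings of the arrays. For miR-96 all hybrid against non-hybrid differences lie between 0.53 and 1.28, and those of PAA against PA and AA against PP lie on both sides of 0.

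The scaling of the arrays moved these sizes. In the plot of differences under 5 scalings, miR-96 was higher in the hybrids under each scaling, from 0.53 for PAA against PP with scaling on the control spots labelled Homo to 1.28 for PA against AA with no scaling. That control scaling moved the median of all zebrafish probes to −0.39 in PAA against PP, from 0.09 with quantile normalization. The miR-183 difference of the same comparison was then 0.00. With scaling on the median probe, miR-183 was 0.12 higher on PAA and 0.16 higher on PA than on AA. Between PAA and PA the sign turned with the scaling for all 3 members, so no order of the hybrids was resolved for any of them.

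A second probe for miR-96, which carries primate names only and is called hsa-miR-96 here, gave a partly different picture. How its oligonucleotide differs from that of the zebrafish-named probe is not stated in the sources used here. Its spots read 1157, 1238, 989 and 962 on PAA and 1156, 1034, 783 and 763 on PA. On AA they read 242, 256, 217 and 194, and on PP 582, 642, 489 and 455. All hybrid spots were above the BLANK level, as were 3 of 4 on AA and 2 of 4 on PP. As with the zebrafish-named probe, the hybrids were brightest and AA was dim, but PP lay between them. The log2 differences were 1.85 ± 0.12 for PAA against AA, 0.71 ± 0.14 for PAA against PP and 1.44 ± 0.17 for PA against AA, all without overlap of spots. The AA mean of 227 was itself above the BLANK level of that array (203), so that level gives no lower bound here. PA against PP, at 0.30 ± 0.19, overlapped. AA was lower than PP by this probe (−1.14 ± 0.14, no overlap), where the zebrafish-named probe gave 0.00. The probes thus agreed on the higher level of both hybrids over AA and of PAA over PP, and gave different values for AA against PP.

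The opposite strand of the miR-182 precursor, miR-182*, was covered by a probe that also carries pufferfish miR-182 names. Its kept spots read 361, 364 and 372 on PAA, 517 and 474 on PA and 236, 234 and 240 on AA. On PP all 4 spots had been set aside, so the probe was not measured there. PA was higher than AA by 0.61 ± 0.06 and PAA by 0.18 ± 0.02, and PAA minus PA was −0.43 ± 0.06, all without overlap of spots (SE over 2 or 3 spots). The PAA against AA difference was −0.011 with scaling on the median probe. Its 3 kept AA spots were above the BLANK level of 203, where miR-182 itself was not detected.

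**Figure D3:**
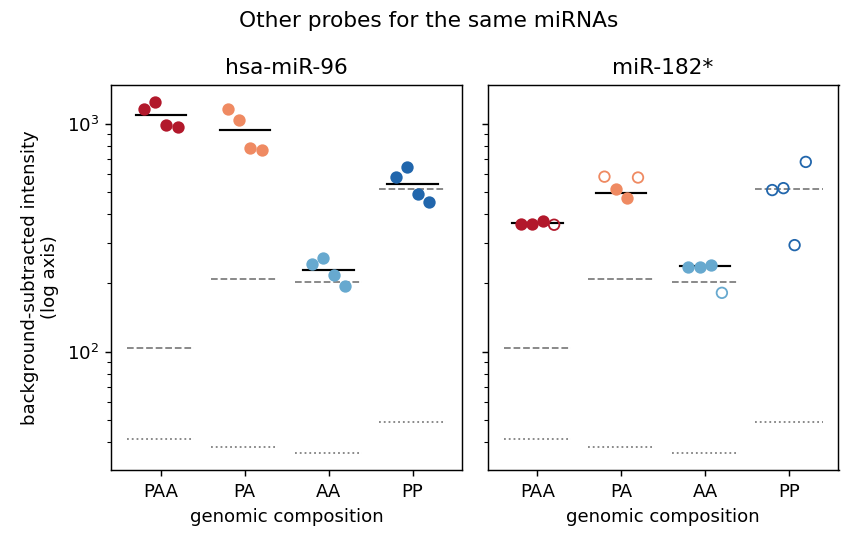
Background-subtracted intensity (log axis) of each spot of the hsa-miR-96 and miR-182* probes on the 4 arrays, with mean of the kept spots (solid line), BLANK median (dotted) and BLANK 95th percentile (dashed). Open circles are spots set aside at the scan, which for miR-182* include all 4 on PP. The hsa-miR-96 spots lie at 194 to 256 on AA and at 455 to 642 on PP.

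The area that the image software outlined as signal describes a spot further, although a spot that passed could be outlined as a single pixel. For miR-182 it was 9500 to 9700 square microns on PAA and 7900 to 8700 on PA, and 100 for all 4 spots on AA and on PP, which is a single pixel. BLANK spots were outlined as a single pixel in 85.3% (PP) to 96.9% (PA) of cases. Of all kept zebrafish spots, 34.9% (PAA), 35.2% (PA), 44.1% (AA) and 41.2% (PP) were single pixels, and of those that passed 11.7% (PAA) to 18.8% (AA). The software thus outlined the miR-182 spots of the hybrids and none of those of the non-hybrid forms, where single pixels were frequent among other probes too. For miR-183 the outline was 400 to 5200 square microns on PAA, 200 to 3800 on PA, a single pixel for all 4 spots on AA, and 300 to 1300 on PP. The detected call of miR-183 on AA therefore rests on single pixels. For miR-96 outlines were 5600 to 6700 (PAA), 5600 to 6200 (PA), 300 to 1000 (AA) and 1600 to 4000 (PP) square microns. Outlines differed between slides for other probes as well, as the median of passing zebrafish spots was 6250 (PAA), 5200 (PA), 3400 (AA) and 2700 (PP) square microns.

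**Figure D4:**
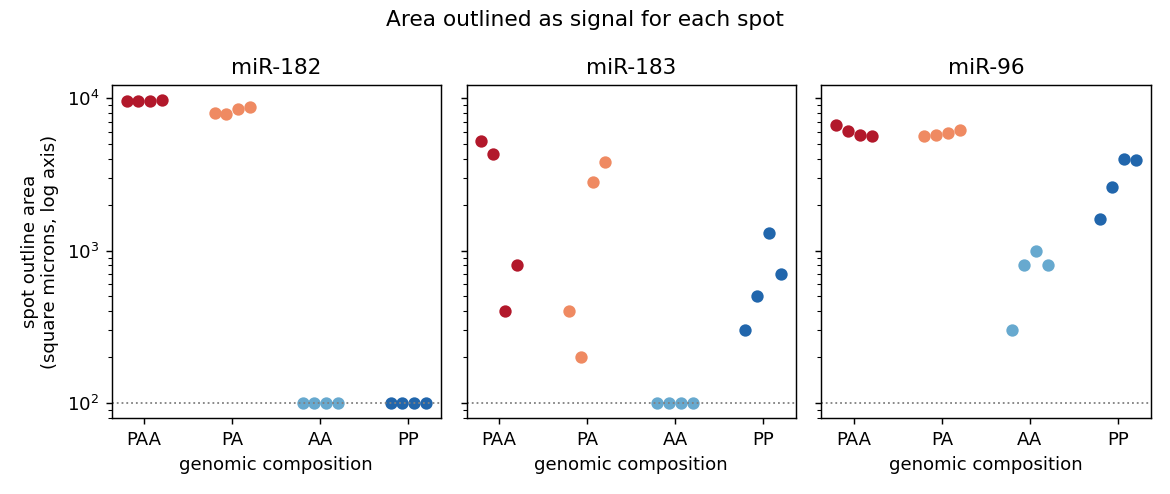
Area outlined as signal (square microns, log axis) for each spot of the 3 cluster probes on the 4 arrays, the spot of miR-96 set aside on PAA included, with 100 square microns, a single pixel, as dotted line. The 8 non-hybrid spots of miR-182 and the 4 AA spots of miR-183 lie on that line.

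The members were then counted against all zebrafish probes. Spots were higher without overlap for 2 of the 3 members in PAA against AA, where 30.7% of 179 zebrafish probes had this. The 2 were miR-182 and miR-96, as in PAA against PP (background 30.3% of 178), PA against AA (30.5% of 174) and PA against PP (30.5% of 174). In PAA against PA it held for 0 of 3 members (background 19.8% of 177) and in AA against PP for 0 of the 2 detected members (30.1% of 166). A difference of 2-fold or more without overlap was rarer among all probes, at 8.38% in PAA against AA, 15.2% in PAA against PP, 6.9% in PA against AA and 13.2% in PA against PP. It held for miR-182 each time by its bound over the lowest detected value. Over the BLANK level of PP the miR-182 bounds were under the 2-fold line, at 1.80-fold (PAA) and 1.65-fold (PA). The miR-96 values lay just past this line, at 2.04-fold to 2.06-fold in the 4 comparisons. Of 14 alternatives for each comparison, they fell below it in 10 for PAA against AA (lowest 1.47-fold), 10 for PAA against PP (1.45-fold), 8 for PA against AA (1.54-fold) and 6 for PA against PP (1.67-fold). It held for no member in PAA against PA (1.13% of all probes) or AA against PP (12.7%). Both hybrid arrays were above both non-hybrid arrays without overlap for 12 of 146 probes (8.22%), with miR-182 and miR-96 among them, and below them for 6 (4.11%). These 4 comparisons share their arrays and are not independent of each other.

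Additivity was examined because the hybrids carry known doses of the parental genomes. The expected signal averaged the parental signals by genome dose, with equal parts of AA and PP for PA and 2 parts of AA to 1 of PP for PAA, after scaling to the total signal. On PAA, miR-96 read 263 against an expected 127 (2.06-fold) and miR-183 read 173 against 117 (1.49-fold). On PA, miR-96 read 296 against 130 (2.28-fold) and miR-183 read 171 against 120 (1.42-fold). For miR-182 the parents could only be set at their lowest detected signals, which gave at least 10.6-fold on PAA and at least 10.2-fold on PA. All 3 members were above expectation in both hybrids, as were 58.4% of 149 zebrafish probes on PAA and 65.1% of 152 on PA. The 2-fold line was passed by 6.04% of all probes on PAA and 10.5% on PA, and by the bounds of miR-182 in both hybrids. For miR-96 it was passed by the values above, but these fell below it in 7 of 13 alternatives on PAA (lowest 1.57-fold) and in 3 of 13 on PA (1.82-fold). Its AA and PP spots were moreover all under the BLANK level, and with both parents set at that level miR-96 stood at 0.831 (PAA) and 0.795 (PA) times the expectation, so that no bound could be given. By the same setting miR-183 stood at 0.549 (PAA) and 0.460 (PA) times the expectation, again without a bound. Of the 3 members only miR-182 was above that expectation, by at least 3.54-fold on PAA and 2.94-fold on PA. For miR-183 the excess on PAA rests on the spot in the high local background, as seen against PP above. The hsa-miR-96 probe read 1022 against 339 on PAA (3.02-fold) and 923 against 394 on PA (2.34-fold). Its value fell below 2-fold in 1 of 13 alternatives on PA (1.69-fold, with quantile normalization) and in 0 of 13 on PAA (lowest 2.29-fold). With both parents set at the BLANK level, hsa-miR-96 stood at 3.23 (PAA) and 2.48 (PA) times the expectation. Its AA and PP means were themselves above that level, so these values are not bounds.

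The values in the authors' table, which include the background, show the same order of hybrid and non-hybrid arrays for miR-182, at 1276 (PAA), 1142 (PA), 161 (AA) and 192 (PP). For miR-96 they are 379, 383, 248 and 213 in the same order of forms, and for miR-183 304, 262, 233 and 208. In ratio, the highest and lowest of these values differ by less than the background-subtracted ones. The background of a spot is part of its value there, and each array was multiplied by its own factor.

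Profiles over the 4 arrays were compared after centring each, by the root mean square (RMS) difference on the log2 scale among 155 candidate probes, with values under the detection rule entered as measured. Candidates were detected on at least 2 arrays and had at least 2 kept spots on every array. Nearest to miR-182 was miR-731, a fish miRNA encoded beside miR-462, with an RMS difference of 0.92, followed by miR-193b (1.30) and miR-101a (1.45), where the median candidate differed by 2.30. For miR-96 the nearest were miR-27d (0.14), miR-146b (0.14), which acts in innate immune signalling, and miR-727* (0.19), with a median of 0.58. For miR-183 they were miR-724 (0.11), miR-34 (0.12) and miR-196b (0.13), with a median of 0.44. The members were not each other's nearest profiles, as miR-96 ranked 11 and miR-183 ranked 29 for miR-182. Seen from miR-96, miR-183 ranked 7 (RMS 0.28) and miR-182 ranked 150, and seen from miR-183, miR-96 ranked 36 and miR-182 ranked 154. Distances from miR-182 rest on readings near background on AA and PP, where miR-193b, miR-27d and miR-727* were not detected either. These 3 probes became candidates through the hybrid arrays only, so their likeness to the members is partly set by that rule. With such values raised to the lowest detected one, miR-101a came before miR-731 and miR-193b for miR-182, miR-27c* was nearest to miR-96 and miR-727* to miR-183. This likeness is over 4 arrays only, and the arrays' slide is part of it.

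Other miRNAs linked to sensory organs differed in both directions. Of a list of 16, which includes the retinal miR-204 and the miR-200 family of olfactory epithelium, 11 to 13 were detected on at least 1 array of a comparison between a hybrid and a non-hybrid form, and 7 to 9 on both. In PAA against AA 3 of 13 were higher without overlap and 6 lower, where 30.7% of all zebrafish probes were higher and 21.8% lower. The 6 were miR-204, miR-184, miR-15a, miR-30b, miR-200b and miR-200c. In PA against AA 3 of 13 were higher and 5 lower (30.5% of all probes higher and 21.8% lower). In PAA against PP 0 of 12 were higher and 3 lower (30.3% of all higher and 19.7% lower). In PA against PP 1 of 11 was higher and 2 lower (30.5% of all higher and 16.1% lower). Over the members detected on both arrays, the median log2 difference was 0.09 in PAA against AA (0.12 for all zebrafish probes), 0.40 in PA against AA (0.01), −0.14 in PAA against PP (0.09) and 0.00 in PA against PP (0.02). These medians leave out members that fell under the detection rule on 1 of the arrays. The largest difference towards the hybrids was that of the neural miR-9, higher by 1.48 ± 0.13 on PA and by 1.27 ± 0.14 on PAA than on AA. Against PP miR-9 differed by only 0.43 ± 0.15 (PA) and 0.21 ± 0.16 (PAA, spots overlapping). Its AA minus PP difference was −1.06 ± 0.14 without overlap. The largest in the other direction was that of miR-30b, which was not detected on PA and was at least 3.03-fold lower there than on AA. For miR-30b PAA minus AA was −1.54 ± 0.69. On PP miR-30b was not detected either, and AA was at least 3.03-fold higher than PP. Both of these largest differences were thus with AA and were not shared by PP. Of the list, only miR-200b split both hybrid arrays from both non-hybrid arrays without overlap of spots, and it was lower in the hybrids. It was not detected on PAA or PA, and on each was at least 1.80-fold lower than on AA and 2.60-fold lower than on PP. The miR-200b means were under the BLANK level on every array.

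The 2 eye miRNAs on the list, miR-204 and miR-184, had a lower sum in the hybrids. It was 201 (PAA), 274 (PA), 393 (AA) and 376.5 (PP). Most of its range came from miR-204, the defining miRNA of the pigment epithelium, at 65.7 (PAA), 134.5 (PA), 233 (AA) and 223 (PP). As miR-204 was detected on AA only, its other readings are under the detection rule. The miR-184 probe read 135 (PAA), 139 (PA), 160 (AA) and 153.5 (PP). Only miR-184 on PAA and miR-204 on AA were above the BLANK level of their array. Summed brain signal, of 8 miRNAs, was 18097, 13227, 17501 and 16058 in the same order of forms, and did not split hybrids from non-hybrids. Within it, miR-132 was higher and miR-128 lower on both hybrid arrays than on both non-hybrid arrays, without overlap of spots. The miR-128 means were under the BLANK level on all 4 arrays. As with the muscle and liver sums below, the sum of 2 red blood cell miRNAs was higher in both hybrids. It was 550.5 (PAA), 569 (PA), 220.5 (AA) and 256 (PP). Of this pair miR-451 was detected on all 4 arrays, at 366, 420, 164 and 119, and miR-144 on none, though its readings entered the sums. On AA and PP both probes were under the BLANK level of their array (203 and 516). Summed muscle signal, of 6 miRNAs, was 2113 (PAA), 1914 (PA), 1275 (AA) and 1570 (PP). Of its members, miR-1 read 1265, 782.5, 480 and 276, with AA above PP, unlike in the sum. The miR-206 probe was lower in the hybrids, at 152, 186.5, 265.5 and 244. On PA and PP, miR-499 (397 and 482) entered the sum without being detected. Summed liver signal, of 4 miRNAs, was 27936 (PAA), 25465 (PA), 22067 (AA) and 22972 (PP), of which miR-192 alone made up 27521, 25008, 21647 and 22303. Its difference after normalization was 0 in every comparison. Quantile normalization gives this to a probe that is brightest on every array, so the 0 is no measure of liver content. The other liver probes did not follow miR-192, as miR-194b read 128 (PAA), 154.5 (PA), 164 (AA) and 242.5 (PP) and miR-122 read 261.5, 219, 226 and 164.5. Summed skin signal, of 3 miRNAs, was 475 (PAA), 557 (PA), 409 (AA) and 678 (PP). The part of blood, muscle or liver content in the pattern of miR-182 and miR-96 was not tested.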

How the data were processed

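The scanner files that the authors deposited hold foreground and local background intensity for each of 5040 spots per array, written by QuantArray 3.0 with no background subtracted. Other deposited columns give the outlined area and diameter and, per the file headers, an ignore filter, whose 1 was taken to mark kept spots and whose 0 those set aside. This reading returned the authors' deposited table of linear intensity for all values of the cluster probes: each was the geometric mean foreground over kept spots, multiplied by an array factor (PAA 1, PA 0.943, AA 1.18, PP 0.963). The study's methods name BRB-ArrayTools 3.4.0 for normalization and a filter at 200% of background.

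Spots recorded with a foreground of 0 (58 on PAA, 25 on PA, 72 on AA, 15 on PP, none of the probes named as members) were left out. Of zebrafish spots, 7.68% (PAA), 19.3% (PA), 11.1% (AA) and 17.1% (PP) had been set aside. A probe's value was the mean log2 signal of its passing spots, or of its kept spots where it was not detected. Values were quantile-normalized over the detected zebrafish probes in Python 3.11.15, and scaled to total signal for additivity. The SE of a difference is over spots, within an array only, and the 1 array per composition limits the precision. Intensities of different probes do not rank miRNAs. Alternatives were other scalings (total signal, median probe, Homo spots, none), normexp with limma 3.58.1 and an offset of 50, no subtraction, other spot filters, all spots, the authors' table and leaving out each spot. Named are the members, other probes for the same miRNAs, the 3 nearest profiles per member and the largest differences of the sensory list. Members and lists were chosen with earlier results of these data known. The steps were tested on simulated data with an even background and every spot kept. Bounds for undetected probes and set-aside spots were not covered by that test. No sequences are shown, as none were in the files used here.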

Additional observations from a re-analysis of the deposited data

Results flagged for a closer look

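Some spots that had been set aside at the scan carried signal above the BLANK level of their array and entered no comparison by the main values. For miR-96 on PAA this was 1 spot at 590, against a BLANK level of 103 and kept spots of 248 to 320. It lay in a local background of 173, against 92 to 122 around the kept spots. For miR-182* it was 1 spot at 360 on PAA, 2 spots with a median of 582.5 on PA (580 and 585, BLANK level 209) and all 4 spots on PP, with a median of 516 (293 to 679, BLANK level 516, exceeded by 2 of them). The sources used here do not give why they were set aside. With all spots included, the miR-96 difference was 0.33 in PAA against PA and 1.35 in PAA against AA, where the kept spots gave 0.01 and 1.04, and the miR-182* difference was 0.96 in PA against AA, where the kept spots gave 0.61.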

How the results depend on the processing

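The count of members higher without overlap was 0 in PAA against PA under all 13 alternatives that give spots, 2 in PAA against PP, and 2 or 3 in PAA against AA, PA against AA and PA against PP, the third member being miR-183. In AA against PP it was 0, but 1 with median scaling, 1 with no filter on dim spots and 0 to 1 when a spot was left out. All 3 members stayed above the additive expectation in both hybrids under its 13 alternatives. With both parents set at the BLANK level, the zebrafish-named miR-96 probe and miR-183 were below it in both hybrids. Of the 3 members only miR-182 stayed above. The hsa-miR-96 probe was above it too, but its AA and PP means exceeded the BLANK level, so that this gave no bound. The bound for miR-182 over the lowest detected value ran from 5.82-fold to 11.9-fold for PAA and from 5.36-fold to 11.1-fold for PA. Over the BLANK level of PP it was lower, at 1.80-fold (PAA) and 1.65-fold (PA). Without the filter on dim spots miR-182 gave values in place of bounds: over AA, 22.8-fold (PAA) and 19.7-fold (PA), and over PP, 32.8-fold (PAA) and 28.3-fold (PA). The authors' table also gives values, which were 7.90-fold (PAA) and 7.07-fold (PA) over AA, and 6.63-fold (PAA) and 5.94-fold (PA) over PP. The miR-96 difference ran from 0.53 to 1.36 for PAA and from 0.63 to 1.28 for PA against the non-hybrid arrays, on both sides of 2-fold, and that of miR-183 from 0.00 to 0.86 for PAA and from 0.16 to 0.65 for PA. PAA against PA changed sign in some settings for all 3. The hsa-miR-96 difference of PA against PP ran from −0.30 to 0.95, and that of AA against PP stayed below 0 (−1.51 to −0.55). For miR-182* in PAA against AA, the 0.18 became −0.011 under median scaling and −0.0050 when dim spots were not filtered. The alternatives for miR-182* and hsa-miR-96, for the nearest profiles, and with the parents at the BLANK level were chosen after seeing the data. The authors' table holds no spots and gave no counts. No paired analysis was possible because each composition had 1 array. Signal near background limits what can be said of miR-183 everywhere and of miR-96 on AA and PP.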
